A study of Mus musculus with 20 samples.

Results

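Livers of mice resuscitated for 1 h after hemorrhagic shock with severe trauma were compared with livers of non-manipulated mice across all genes of an Affymetrix Mouse430_2 array. The arrays were chosen by their titles, and the comparison rests on 9 of the 20 arrays of the series. There were 4 arrays of the resuscitated group (HS/T+1.0R), whose mice had 1.5 h of shock and trauma before the resuscitation, and 5 arrays of the control group (C). The 4 arrays of mice taken at the end of the same shock (HS/T) were used as a second point of reference. All mice were male C57BL/6 aged 8 to 12 weeks, and no genotype, transgene or drug is named for any group. The remaining groups, minor trauma (MT) and 4.5 h of resuscitation, are not compared here, but their arrays entered the normalization, the choice of genes and probe sets and the estimate of the spread.

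The design text has the animals anesthetized and operated on, yet describes the control group as non-manipulated. Anesthesia, surgery, blood loss, trauma, resuscitation and the time since the start therefore cannot be told apart when HS/T+1.0R is set against C. Which fluid was given, and what the severe trauma was, is not stated in the sources used here. The labels do not say whether each array is a separate mouse, so p-values measure the spread between these arrays.

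Hemorrhagic shock deprives the liver of flow and oxygen, and resuscitation restores flow. Injured tissue releases molecules that engage Toll-like and interleukin-1 receptors on Kupffer cells, endothelium and hepatocytes, and these receptors activate the transcription factor NF-kB and the MAP kinases. MAP kinases switch on immediate early genes within minutes without new protein synthesis, and NF-kB switches on chemokines, adhesion molecules and its own inhibitors. Hepatocytes in turn answer interleukin-6 with acute phase proteins and stress hormones with glucose output.

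The HS/T+1.0R arrays each correlated best with another array of their own group. The array labelled control 5 did not: across genes it correlated best with MT array 2 (r = 0.983), while control arrays 1 to 4 correlated best with one another. Many results that rest on control array 5 are therefore given without it as well. The log2 ratio of 3′ to 5′ signal, which rises as RNA degrades, averaged -0.371 ± 0.124 for Gapdh in HS/T+1.0R and -0.302 ± 0.196 in C (SD, n = 4 and n = 5). It averaged 0.895 ± 0.099 for beta-actin in HS/T+1.0R and 0.786 ± 0.262 in C. Neither ratio separated the groups by an exact two-sided permutation test over arrays (p = 0.54 and p = 0.444, adjusted p = 0.54 for both, where the smallest possible p is 0.0159). The hepatocyte markers, among them Alb, Apoa1, Ttr and Hnf4a, were at hand for 13 genes, and their summed signal ran from 96100 to 100400 in HS/T+1.0R and from 93800 to 99840 in C.

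Of 12832 genes bright enough to be tested, 1272 (9.91%) differed between HS/T+1.0R and C at an adjusted p of at most 0.05 (limma, Benjamini-Hochberg adjustment over all genes tested). The 591 genes that rose made up 4.61% of the genes tested, and the 681 that fell made up 5.31%. The counts of list members below are to be read against these shares. The rises were much the larger. Of the calls, 447 reached 2-fold or more (3.48% of the genes tested), and of these 347 rose and 100 fell. At 4-fold or more there were 118 that rose and 3 that fell, and at 8-fold or more 41 that rose and 1 that fell. The array ranges of the 2 groups did not overlap for 978 of the 1272 called genes, against 4.45% of all genes apart on the higher side and 7.64% on the lower side. The calls were made on these same arrays, so the separation of called genes is no separate support for them. Over all genes tested, the log2 fold change had a median of -0.07, and of -0.12 on the values as deposited.

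The balance of rises and falls moved with the scaling. With the values as deposited 343 genes rose and 139 fell, with median centring 542 rose and 353 fell, and with trimmed mean scaling 556 rose and 914 fell. The arrays were also split by the mean signal of their dap poly-A control probe sets, above 100 (called spiked here) or not. This split was inferred from the signal and is not in the labels. Called genes numbered 440 among the spiked arrays (HS/T+1.0R 2 and 3, control 2 and 4) and 290 among the others. Without control array 5, 1466 genes were called, 690 of them higher. Leaving out other arrays gave as few as 881 calls, without HS/T+1.0R array 3.

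**Figure D1:**
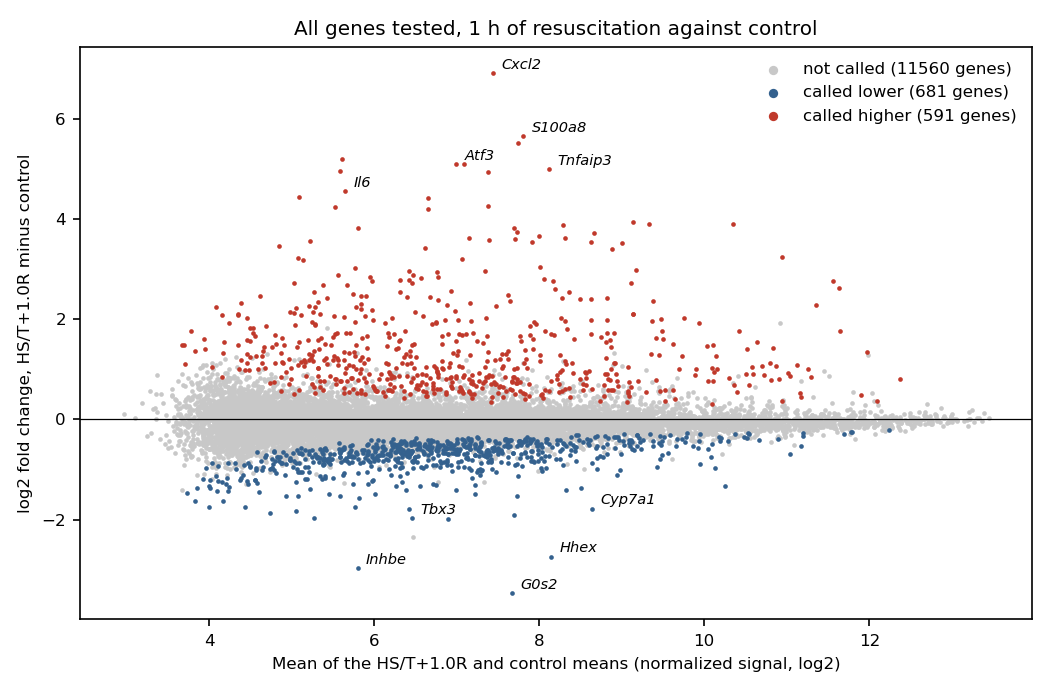
Each point is 1 of the 12832 genes tested, placed by the mean of its HS/T+1.0R and control group means (normalized signal, log2, horizontal) and by its log2 fold change, HS/T+1.0R minus control (vertical). Red points are the 591 genes called higher, blue points the 681 called lower and grey points those not called; the rises reach 6.91 for Cxcl2, and the deepest fall is -3.47 for G0s2.

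The 6 genes with the largest rises whose start sites RefSeq holds were Cxcl2, S100a8, S100a9, Ccl3, Gadd45b and Atf3. Their promoters are shown because they stand at the head of the response. Each run holds 250 bases before and 50 bases after the annotated start, 5′ to 3′ on the strand of the gene, in RefSeq's GRCm38.p6, with matches to the searched motifs in capitals.
Cxcl2 (chr5:90903649-90903948, + strand): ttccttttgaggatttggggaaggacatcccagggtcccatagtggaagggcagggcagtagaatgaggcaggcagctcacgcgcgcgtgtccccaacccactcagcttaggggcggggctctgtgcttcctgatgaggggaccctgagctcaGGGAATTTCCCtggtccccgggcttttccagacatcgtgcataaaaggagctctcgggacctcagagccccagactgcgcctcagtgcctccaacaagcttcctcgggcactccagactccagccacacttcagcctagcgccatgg
S100a8 (chr3:90668821-90669120, + strand): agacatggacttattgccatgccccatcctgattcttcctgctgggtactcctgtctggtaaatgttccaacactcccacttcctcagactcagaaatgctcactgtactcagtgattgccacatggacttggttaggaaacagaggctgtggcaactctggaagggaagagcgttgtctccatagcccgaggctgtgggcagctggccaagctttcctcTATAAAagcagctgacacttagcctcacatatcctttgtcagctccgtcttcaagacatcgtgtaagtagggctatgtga
S100a9 (chr3:90695672-90695971, - strand): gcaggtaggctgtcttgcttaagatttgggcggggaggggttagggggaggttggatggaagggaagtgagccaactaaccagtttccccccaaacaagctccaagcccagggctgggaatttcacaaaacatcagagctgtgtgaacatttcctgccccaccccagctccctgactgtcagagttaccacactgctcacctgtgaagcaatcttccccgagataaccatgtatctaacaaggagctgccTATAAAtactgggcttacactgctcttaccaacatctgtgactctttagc
Ccl3 (chr11:83649329-83649628, - strand): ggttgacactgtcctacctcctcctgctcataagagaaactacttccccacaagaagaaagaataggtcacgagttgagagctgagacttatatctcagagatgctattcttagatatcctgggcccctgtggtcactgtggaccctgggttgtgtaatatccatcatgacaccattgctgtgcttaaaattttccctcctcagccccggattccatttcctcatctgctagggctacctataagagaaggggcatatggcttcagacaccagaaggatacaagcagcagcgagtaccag
Gadd45b (chr10:80929841-80930140, + strand): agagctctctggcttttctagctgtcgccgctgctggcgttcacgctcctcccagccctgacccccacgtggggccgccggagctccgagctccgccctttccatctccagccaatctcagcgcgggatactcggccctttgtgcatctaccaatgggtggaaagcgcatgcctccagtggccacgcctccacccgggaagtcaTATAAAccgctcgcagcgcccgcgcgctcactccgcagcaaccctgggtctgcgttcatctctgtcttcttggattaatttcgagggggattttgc
Atf3 (chr1:191183284-191183583, - strand): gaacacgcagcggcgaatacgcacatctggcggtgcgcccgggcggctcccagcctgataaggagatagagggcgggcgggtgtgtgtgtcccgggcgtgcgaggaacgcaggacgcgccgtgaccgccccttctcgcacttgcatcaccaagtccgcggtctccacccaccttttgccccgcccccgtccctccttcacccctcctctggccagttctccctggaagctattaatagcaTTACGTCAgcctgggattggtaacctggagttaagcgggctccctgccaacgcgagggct
The motifs were chosen after the sequences had been read, and all were searched on both strands. They were the NF-kB consensus, the AP-1 motif TGANTCA, the ATF/CRE motif TNACGTCA, the TATA box TATAAA and the CArG box. The capitals mark an NF-kB match in Cxcl2, which reads as such on either strand, the letters TATAAA in S100a8, S100a9 and Gadd45b, and an ATF/CRE match in Atf3. Counted from the annotated start, TATAAA begins at -30 in S100a8 and -46 in Gadd45b, and at the start itself (0) in S100a9. The Ccl3 window held none of these letters.

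Promoters were at hand for 13 of the 15 genes with the largest rises. The NF-kB consensus was in 4 of the 13 (Cxcl2, Tnfaip3, Ier3 and Il6), against 4.51% of the 32851 promoters of the same length. TATAAA was anywhere in the window in 7 of the 13, against 13.62% of all. AP-1 matches were in 2 of the 13 (7.81% of all), ATF/CRE matches in 1 (2.93% of all) and CArG boxes in 0 (1.63% of all). The promoters of Tnfaip3 and Il6 hold more than 1 of the motifs, and a match describes letters in a window and not a bound site.

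Immediate early genes were broadly higher after 1 h of resuscitation. Of 29 tested, 24 rose and 0 fell, with a median log2 fold change of 2.02. Of the 29, 4 lay at or below the array median on every C array and were bright enough to test only through other groups. Atf3, a stress-induced repressor of inflammatory genes, read 9.87, 9.22, 9.54 and 9.53 (normalized log2 signal) on the HS/T+1.0R arrays, against 4.41, 4.35, 4.02, 4.36 and 5.12 on the C arrays. The groups stood more than 4 log2 units apart, with no overlap, and the rise was 5.09 ± 0.24 (log2 fold change ± SE, 34.1-fold, limma adjusted p = 2.81e-11). Only 1 of the 5 C arrays lay above the array median here, and with the other 4 set to that median the fold was 28.5. Such a second fold is called floored below and was computed for named genes where only some arrays of the lower group were above the median.

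Egr1, a zinc finger factor of the serum response, read 11.75, 10.61, 10.88 and 11.86 in HS/T+1.0R and 8.65, 8.46, 6.86, 6.40 and 6.51 in C, a rise of 3.90 ± 0.43 (adjusted p = 1.68e-06). Control arrays 1 and 2 were the higher ones of their group, yet below every HS/T+1.0R array. Ier3, an early gene that modulates survival, rose 30.7-fold, Maff, a small Maf factor that partners bZIP proteins, 18.5-fold, and Btg2, an antiproliferative early gene, 15.4-fold (adjusted p = 6.99e-10, 3.83e-07 and 6.54e-11). Maff was above the array median on 3 of 5 C arrays (floored fold 12.5). Jun and Fos, the classical AP-1 subunits, were named in addition after their values were seen, and rose by 3.87 and 3.82 on the log2 scale. The 5 members that were not called were Klf4, Klf10, Klf2, Nr4a2 and Egr3.

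Feedback inhibitors of the MAP kinases rose with them. Of 15 tested, 9 rose and 0 fell (median 0.72), and all the Dusp genes below encode phosphatases that switch MAP kinases off. Dusp5 was at least 1.93-fold higher, because it lay at or below the array median on every C array. Dusp8, Dusp2, Dusp1 and Dusp6 rose 4.83-fold, 4.58-fold, 2.84-fold and 2.73-fold (limma adjusted p at most 0.000932). Dusp8 and Dusp2 were above the array median on 1 and 4 of the 5 C arrays (floored folds 3.06 and 3.7), and Dusp8 rose by 1.69 on the log2 scale with the median of its probe sets.

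Chemokines held the largest rise of the comparison. Of 24 tested, 11 rose and 1 fell (median 0.38), so the rises were large in some members and absent from the test's calls in 12. Of the 24, 4 lay at or below the array median on every C array and were tested only through other groups. Cxcl2, a ligand of the neutrophil receptor Cxcr2, read 10.64, 11.15, 11.13 and 10.66 in HS/T+1.0R and 3.62, 3.50, 3.90, 3.97 and 4.91 in C. Its ranges lay over 5 log2 units apart, and the rise was 6.91 ± 0.42 (121-fold, adjusted p = 6.99e-10). As 1 of the 5 C arrays was above the array median, the floored fold was 75.01. The addend before the log also moved it: Cxcl2 rose by 7.52 with 1 added to the values in place of 6, and by 6.08 with 18 added. The same addends gave 6.61 and 3.94 for Ccl3, 6.21 and 3.76 for Hcar2, 6.09 and 3.16 for Acod1, 5.51 and 3.53 for Il6, and 5.33 and 3.21 for Clec4e, all called in both fits. With 18 added the fold changes of Atf3, Ccl2, Gadd45b, Maff, Ppp1r3g, Sele, Clec4d, Hspa1a, Il10, Dusp5, Dusp8, Mycl, Slc16a5 and Zfp39 against C were also smaller by more than 1.5 times, and each stayed called.

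Cxcl1, a ligand of the same receptor, read 12.23, 12.44, 12.28 and 12.23 in HS/T+1.0R and 7.62, 8.30, 7.61, 6.98 and 11.50 in C. Control array 5 alone came near the resuscitated livers. The rise was 3.89 ± 0.61 (adjusted p = 0.000168) and 4.67 without that array.

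Among CC chemokines, Ccl2, which draws monocytes through Ccr2, read 8.70, 9.53, 9.19 and 8.03 in HS/T+1.0R and 4.54, 4.20, 4.33, 4.28 and 4.86 in C, a rise of 21.4-fold without overlap (adjusted p = 3.02e-07, floored fold 18.5 with 1 of 5 C arrays above the array median). Ccl3 and Ccl4 encode chemokines made by activated macrophages. Ccl3 was at least 12.1-fold higher, and Ccl4 rose 12.4-fold (adjusted p = 1.7e-06 and 5.06e-07). Cxcl12, the homeostatic ligand of Cxcr4, was the 1 chemokine that fell (-0.50, named after its value was seen).

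Of 28 NF-kB pathway genes and targets, 25 rose and 0 fell (median 1.94), and 25 were called without control array 5 as well. Of the 28, 5 lay at or below the array median on every C array and were tested only through other groups. The list spans cytokines, receptors, adhesion molecules, NF-kB subunits and inhibitors. Tnfaip3, which encodes A20, a ubiquitin-editing inhibitor of NF-kB, read 10.11, 10.90, 11.09 and 10.38 in HS/T+1.0R and 5.23, 5.0, 6.01, 5.14 and 6.77 in C, a rise of 4.99 ± 0.34 (31.7-fold, adjusted p = 3.01e-09). Every HS/T+1.0R array was over 3 log2 units above the highest C array. Il1b, the inflammatory cytokine made by macrophages and neutrophils, read 9.36, 9.49, 9.33 and 9.87 in HS/T+1.0R and 4.78, 5.47, 5.34, 5.03 and 5.65 in C (19.2-fold, adjusted p = 9.6e-08), again without overlap. Cd14, the co-receptor for endotoxin, rose 11.6-fold. Tnf, Nfkbia and Relb were named in addition after their values were seen, as the cytokine, the inhibitor and the subunit a reader would look for. Tnf was at least 3.46-fold higher, and Nfkbia and Relb rose 3.38-fold and 3.76-fold, Relb being above the array median on 1 of 5 C arrays (floored fold 3.1).

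Interleukin-6 itself came up with its feedback inhibitors. Il6 read 8.58, 8.17, 6.90 and 8.09 in HS/T+1.0R and 3.63, 3.25, 3.21, 3.23 and 3.53 in C, where every array lay at or below the array median, so the rise was at least 10-fold (adjusted p = 3.02e-07). HS/T+1.0R array 3 was the lowest of its group and still far above C. Socs3, which blocks signalling by the gp130 receptors, rose 10.5-fold. Il10, an anti-inflammatory cytokine, was at least 5.26-fold higher. Cebpd, an acute phase transcription factor, rose 5.82-fold and Il1rn, the interleukin-1 receptor antagonist, 3.95-fold (adjusted p at most 0.000113 for Socs3, Il10, Cebpd and Il1rn). With the median of a gene's probe sets Cebpd rose by 1.71 and Il1rn by 2.90 on the log2 scale. Of 22 members of the interleukin-6 list, 9 rose and 0 fell (median 0.71), and 12 were called without control array 5.

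Acute phase proteins themselves, which hepatocytes secrete under these signals, gave fewer calls. Of 27 tested, 6 rose and 0 fell (median 0.15), against 4.61% higher and 5.31% lower among all genes. Fgb, which encodes a fibrinogen chain, differed by 0.15 ± 0.08 (adjusted p = 0.301). Saa3 read 8.29, 10.55, 10.57 and 9.06 in HS/T+1.0R and 6.54, 7.33, 7.65, 7.79 and 8.88 in C, a rise of 1.98 ± 0.42 with ranges that overlapped through HS/T+1.0R array 1 and control array 5. Steap4, a metalloreductase, rose 3.4-fold with ranges that overlapped through HS/T+1.0R array 1 (10.27) and control array 5 (10.9). The rise was 2.82 on the log2 scale within the spiked arrays, and 0.95 and not called within the others (adjusted p = 0.569). Lcn2, which encodes the siderophore-binding protein lipocalin 2, read 9.35, 11.01, 11.23 and 11.07 in HS/T+1.0R and 6.38, 6.44, 7.67, 6.15 and 11.78 in C. Control array 5 was above every resuscitated array, and the rise of 2.98 became 4.003 without it. The Lcn2 call ended without HS/T+1.0R array 2, 3 or 4 or control array 4 (adjusted p from 0.0503 to 0.0606). The Orm3 call (1.42) ended without HS/T+1.0R array 3 or 4 or control array 2 or 4 (0.0546 to 0.105), and that of Serpina3n (1.06) without any 1 of 7 arrays (HS/T+1.0R 2 to 4, control 1 to 4, 0.052 to 0.0928). With only the 2 groups in the fit the calls of Lcn2, Orm3 and Serpina3n ended too (0.0812, 0.0876 and 0.0877). Orm3 was above the array median on 4 of 5 C arrays (floored fold 2.52). Of the list, 10 members were called without control array 5, and 3 without HS/T+1.0R array 3 or 4 or control array 4.

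Adhesion molecules that hold leukocytes to the vessel wall rose in 6 of 16 tested genes, and 0 fell (median 0.51). Sele, which encodes E-selectin on activated endothelium, read 7.01, 7.28, 7.40 and 6.34 in HS/T+1.0R and 3.48, 2.68, 3.76, 3.07 and 4.21 in C, at least 5.28-fold higher (adjusted p = 2.8e-08). No C array was above the array median for Sele. Icam1, a ligand of the leukocyte integrins, read 10.09, 10.82, 10.71 and 9.94 in HS/T+1.0R and 6.38, 6.74, 6.76, 6.75 and 7.65 in C (11.6-fold, adjusted p = 2.51e-08). Selp, which encodes P-selectin, rose 2.83-fold, Vcam1, a ligand of the integrin VLA-4, 2.97-fold and Selplg, the P-selectin ligand of leukocytes, 1.75-fold. The Vcam1 ranges overlapped through control array 5 (8.35). Its rise was 1.91 on the log2 scale without that array (adjusted p = 2.66e-05). The Selplg call ended as deposited (adjusted p = 0.225).

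Neutrophil markers rose in the same livers. Of 11 tested, 9 rose and 0 fell (median 2.46), against 4.61% higher among all genes. Elane and Mpo, granule genes of immature neutrophils, were tested and not called. Of the 11, 4 lay at or below the array median on every C array and were bright enough to test only through other groups. Ly6g and Retnlg had no 1-gene probe set and Camp, Cxcr2 and Ltf were too dim to test. The summed signal of the 11 genes ran from 3092 to 4839 in HS/T+1.0R, 647.8 to 2631 in HS/T and 208.4 to 527.9 in C, whose highest value was that of array 5. In whole liver more cells of a type and more RNA per cell cannot be told apart.

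S100a8 and S100a9 encode the subunits of calprotectin, the main cytosolic protein of neutrophils. S100a8 read 10.29, 10.99, 10.94 and 10.32 in HS/T+1.0R and 4.04, 3.76, 4.71, 4.85 and 7.53 in C, a rise of 5.66 ± 0.56 (50.4-fold, adjusted p = 3.85e-07) and of 6.29 without control array 5. S100a9 read 10.17, 10.82, 10.77 and 10.24 in HS/T+1.0R and 4.49, 4.36, 4.73, 4.23 and 7.09 in C (45.9-fold, adjusted p = 1.21e-07). They were above the array median on 3 and 2 of the 5 C arrays, and the floored folds were 41.5 and 41.4. In both genes control array 5 stood over 2 log2 units above the rest of its group and below every resuscitated array. Clec4e and Clec4d, C-type lectin receptors of myeloid cells, were at least 8.26-fold and 4.25-fold higher, and Mmp8, the neutrophil collagenase, rose 6.42-fold (above the array median on 1 of 5 C arrays, floored fold 5.29). C5ar1, the receptor for the complement fragment C5a, was the 1 call among 24 complement genes (2 without control array 5), at least 1.94-fold higher. Among all genes 9.91% were called.

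Markers of other cell types gave fewer calls, and among all genes 4.61% rose and 5.31% fell. Of 11 monocyte and macrophage markers 2 rose and 0 fell (Chil3 and Plac8). Chil3 was above the array median on 1 of 4 HS/T+1.0R arrays and on 0 of 5 C arrays. Both groups thus lay near the floor, and no bound on its fold can be given. Of 11 Kupffer cell markers 0 rose and 3 fell, Slc40a1 (the iron exporter ferroportin, -0.88 ± 0.16), Cd163 (-0.64) and Vsig4 (-0.53), and the summed signal of the list ran from 3479 to 4311 in HS/T+1.0R and from 4844 to 6411 in C. As deposited, 0 Kupffer markers were called, and the calls of Cd163 and Vsig4 each ended on leaving out 1 of 7 arrays (Cd163 HS/T+1.0R 1 to 4 and control 1, 3 and 5, adjusted p from 0.06 to 0.161; Vsig4 HS/T+1.0R 1 to 4 and control 1, 3 and 4, 0.0506 to 0.14). Of 12 sinusoidal endothelial markers, Lyve1 rose and Gpr182 fell. Of 13 stellate cell and fibroblast markers, Hand2, a transcription factor of stellate cells, fell (-1.53 ± 0.26) and Acta2 rose. Among platelet markers Pf4 (0.80) and Itgb3 (1.13) rose of 5 tested. Hand2 was above the array median on 1 of 4 HS/T+1.0R arrays (floored fold 2.25), and Itgb3 on 1 of 5 C arrays (1.56). As deposited the calls of Gpr182, Pf4, Itgb3 and Acta2 ended (adjusted p = 0.134, 0.199, 0.055 and 0.56), as did those of Chil3 and Plac8 (0.144 and 0.587). Sox9 (1.41, floored fold 2.46 with 3 of 5 C arrays above the array median) rose of 4 cholangiocyte markers. The Chil3 rise was 2.01 with 1 added before the log, and 0.56 and not called with 18 added (0.129). With 1 added, the Cd163 and Vsig4 calls ended (0.0554 and 0.0507).

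The calls of Chil3, Plac8, Lyve1, Acta2 and Itgb3 were not steady. That of Chil3 ended without HS/T+1.0R array 1, 2 or 3 or control array 2, 3 or 4 (adjusted p from 0.0634 to 0.113), and that of Plac8 without HS/T+1.0R array 3 or 4 or control array 1 or 4 (0.0506 to 0.06). That of Lyve1 ended without any HS/T+1.0R array or control array 1 or 2 (0.0516 to 0.0924). That of Acta2 ended without HS/T+1.0R array 1 or 3 or control array 2 or 4 (0.052 to 0.137), and that of Itgb3 without HS/T+1.0R array 3 or 4 or control array 1 or 4 (0.0636 to 0.0827). Without control array 5 the rises of Chil3, Plac8, Lyve1, Acta2 and Itgb3 stayed called (1.09, 0.69, 1.56, 0.65 and 1.37). Their adjusted p were then 0.0478, 0.000564, 0.000104, 0.0286 and 0.00398, in the same order. No T and NK cell marker (6 tested), B cell marker (6), erythroid marker (1), skeletal muscle marker (2) or adipocyte and peritoneal marker (1) was called by limma. At an unadjusted p under 0.05 there was 1, Gzmb (adjusted p = 0.0529), a T and NK cell marker that was called without control array 3 or 5.

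**Figure D2:**
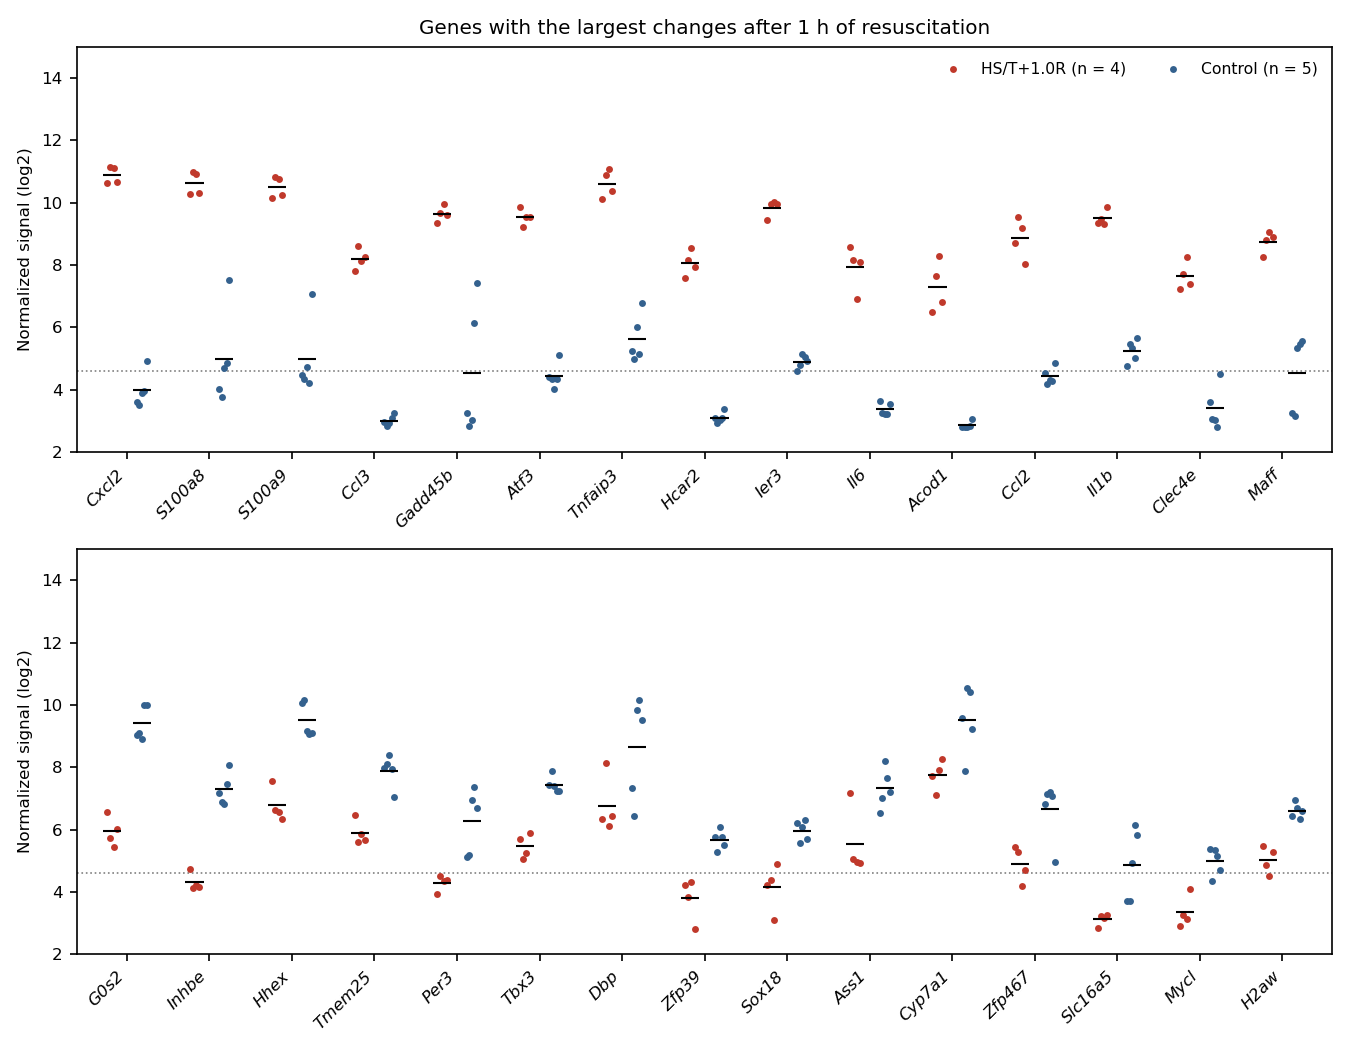
Normalized signal (log2, vertical) of the 15 named genes with the largest rises (upper row) and the 15 with the largest falls (lower row), with 1 point per array, HS/T+1.0R (red, n = 4) left of control (blue, n = 5); black bars are group means and the dotted line is the array median of 4.604. In the upper row every HS/T+1.0R point lies above every control point of the same gene, and in the lower row ranges overlap for Dbp, Ass1, Cyp7a1 and Zfp467.

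Genes of low oxygen and cell stress rose in part. Of 25 hypoxia-inducible genes 11 rose and 0 fell (median 0.60), and 7 were called without HS/T+1.0R array 3 and 6 as deposited. Hmox1, which encodes heme oxygenase 1, read 8.32, 10.15, 9.84 and 9.62 in HS/T+1.0R and 6.64, 6.95, 6.94, 6.84 and 7.91 in C, a rise of 5.38-fold (adjusted p = 8.91e-05). HS/T+1.0R array 1 was the lowest of its group, and the ranges did not overlap. Pfkfb3, an activator of glycolysis, rose 5.88-fold, Adm, the vasodilator adrenomedullin, 4.97-fold and Ndrg1, a stress gene of low oxygen, 2.43-fold. Pfkfb3 and Adm were above the array median on 4 and 3 of the 5 C arrays (floored folds 5.83 and 4.61). The Pfkfb3 rise was 1.57 on the log2 scale with the median of its probe sets. Of 18 NRF2 antioxidant genes, Hmox1 among them, 2 rose and 1 fell (median 0.03), against 4.61% higher and 5.31% lower among all genes, and 1 was called without HS/T+1.0R array 2.

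Of 24 heat shock genes 3 rose and 1 fell (median 0.04), against 4.61% higher and 5.31% lower among all genes. Hspa1a read 6.70, 7.22, 7.55 and 7.64 in HS/T+1.0R and 4.12, 4.49, 4.19, 3.28 and 5.23 in C (8.08-fold, floored fold 5.85 with 1 of 5 C arrays above the array median, adjusted p = 1.2e-05), and Hspa1b rose 3.29-fold. These are near-identical inducible Hsp70 copies, so which of them the probe sets read is uncertain. Hspb8 (0.68) and Hsf2 (-0.89, floored fold 1.6 with 2 of 4 HS/T+1.0R arrays above the array median) made the other calls, which ended without HS/T+1.0R array 1, 2 or 3 or control array 1, 2 or 4 for Hspb8 (adjusted p from 0.0586 to 0.0887) and without HS/T+1.0R array 3 or 4 or control array 2 or 4 for Hsf2 (0.0686 to 0.118). The Hspb8 rise was 0.875 without control array 5 (adjusted p = 0.000676). Of the list, 7 were called without control array 5, and 2 without HS/T+1.0R array 3 or control array 2.

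Of 26 genes of endoplasmic reticulum and integrated stress, 4 rose and 1 fell (median 0.06), and 3 were called without HS/T+1.0R array 1 or 2 or control array 1 or 3. Among all genes 4.61% rose and 5.31% fell. Ppp1r15a, the phosphatase subunit that ends the integrated stress response, rose 4.83-fold (adjusted p = 2.19e-08) and Chac1, a glutathione-degrading enzyme, 3.19-fold. Nupr1 (1.25, floored fold 1.4 with 1 of 5 C arrays above the array median) and Trib3 (0.82) also rose. Their calls ended without HS/T+1.0R array 2 or 3 or control array 1 or 3 for Nupr1 (0.0755 to 0.119), and without HS/T+1.0R array 1, 2 or 4 or control array 1, 2, 3 or 5 for Trib3 (0.0528 to 0.103).

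Growth arrest genes were among the strongest. Of 18 p53 targets and Gadd45 genes, 9 rose and 0 fell (median 0.80). Gadd45b, a stress sensor that binds MAP kinase kinases, read 9.36, 9.66, 9.95 and 9.60 in HS/T+1.0R and 3.25, 2.85, 3.02, 6.14 and 7.43 in C. The controls were split, with arrays 4 and 5 far above arrays 1 to 3, and all lay below the resuscitated livers. The rise was 5.11 ± 0.65 (adjusted p = 1.19e-05) and 5.83 without control array 5 (4.38 with the median of its probe sets, 5.97 with 1 and 4.28 with 18 added before the log, floored fold 17.9, with 2 of 5 C arrays above the array median). Gadd45a, Gadd45g and the cell cycle inhibitor Cdkn1a rose 12.1-fold, 6.63-fold and 12.7-fold. Of 19 apoptosis and death receptor genes 6 rose and 1 fell (median 0.17), with Tnfrsf12a, the receptor of TWEAK, and Birc3, an inhibitor of apoptosis, 3.94-fold and 3.28-fold higher. Mcl1, a survival factor of the Bcl2 family, was 2.04-fold higher, a call that ended with the median of its probe sets (0.34 on the log2 scale, adjusted p = 0.0532).

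Genes of stress hormones and fasting rose in part. Of 23 glucocorticoid-inducible genes 13 rose and 0 fell (median 1.13), and of 20 gluconeogenesis and cAMP response genes 7 rose and 0 fell (median 0.43). Igfbp1, a binding protein for insulin-like growth factors that insulin represses, read 12.76, 12.86, 12.92 and 13.22 in HS/T+1.0R and 9.0, 10.01, 10.75, 10.33 and 11.50 in C (6.15-fold, adjusted p = 1.08e-05), without overlap. Pdk4, which restrains pyruvate oxidation, rose 7.83-fold (adjusted p = 6.13e-05). Nr4a1, a nuclear receptor induced by cAMP, rose 7.09-fold and Irs2, an adaptor of the insulin receptor, 4.04-fold. Ppp1r3g, a glycogen-targeting subunit of protein phosphatase 1, was at least 8.65-fold higher. Of 18 glycolysis and glycogen genes 1 rose (Pdk4) and 0 fell, against 4.61% higher and 5.31% lower among all genes.

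The metallothioneins Mt1 and Mt2, metal-binding proteins of the acute phase, overlapped between groups because of control array 5. Mt1 read 12.68, 13.01, 13.05 and 13.06 in HS/T+1.0R and 9.97, 8.40, 8.42, 11.04 and 13.08 in C, a rise of 2.77 that became 3.50 without control array 5 and 3.76 with the median of its probe sets. Mt2 rose by 3.25 (adjusted p = 0.00206) and by 4.09 without it. The Sik1 call (1.02) ended without HS/T+1.0R array 1, 3 or 4 or control array 1, 2 or 4 (adjusted p from 0.0506 to 0.0792), as deposited (0.126) and with the median of its probe sets (0.217). The Sik1 rise was 1.255 without control array 5 (adjusted p = 0.00317).

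Of 24 genes of the insulin, growth hormone and IGF axis 5 rose and 4 fell (median 0.03), against 4.61% higher and 5.31% lower among all genes. Fst, which encodes follistatin, a binder of activins, read 7.26, 8.49, 8.67 and 7.16 in HS/T+1.0R and 4.42, 6.36, 5.53, 4.02 and 4.36 in C (7.75-fold, floored fold 6.74 with 2 of 5 C arrays above the array median, adjusted p = 0.000132). Inhbe, which encodes the liver-made activin E subunit, read 4.74, 4.13, 4.22 and 4.16 in HS/T+1.0R and 7.18, 6.88, 6.83, 7.46 and 8.08 in C, a fall of 7.85-fold (-2.97 ± 0.22, adjusted p = 9.07e-09). Only 1 of 4 HS/T+1.0R arrays was above the array median (floored fold 6.27). The activin subunit and the activin binder thus moved in opposite directions, each without overlap. The rise of Socs2, a brake on growth hormone signalling, was 1.77, and its call ended without HS/T+1.0R array 2 or 3 (adjusted p 0.0549 and 0.0729).

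Of 25 genes of fatty acid and triglyceride synthesis 9 rose and 1 fell (median 0.27). The fall was that of G0s2, the inhibitor of adipose triglyceride lipase, and it was the largest of the whole comparison. G0s2 read 6.57, 5.73, 5.44 and 6.01 in HS/T+1.0R and 9.03, 9.09, 8.90, 9.98 and 10.01 in C, a fall of 11.1-fold (-3.47 ± 0.30, adjusted p = 5.85e-08). Fasn, the fatty acid synthase, read 11.39, 10.09, 10.59 and 11.35 in HS/T+1.0R and 9.60, 9.17, 9.68, 8.52 and 9.86 in C (2.8-fold, adjusted p = 0.00214). Thrsp, a lipogenic gene, rose 2.52-fold with ranges that overlapped through control array 5 (12.65). Its rise was 1.67 on the log2 scale without that array (adjusted p = 0.000367). The calls of Plin4 (1.73) and Lpin1 (1.43) ended without HS/T+1.0R array 2 for Plin4 (adjusted p 0.0515) and without HS/T+1.0R array 2, 3 or 4 for Lpin1 (0.0633 to 0.0829). With only the 2 groups in the fit the calls of Thrsp, Plin4 and Lpin1 ended (0.085, 0.0579 and 0.0726). The Lpin1 rise was 1.725 without control array 5 (adjusted p = 0.00502). Plin4 was above the array median on 3 of 5 C arrays (floored fold 2.55). Of 19 cholesterol genes 1 rose, Insig1 (1.91-fold), which retains the SREBP complex in the endoplasmic reticulum. Among all genes 4.61% rose and 5.31% fell.

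Of 16 liver transcription factors, 4 fell, 1 rose and 11 were not called (median -0.67), against 5.31% lower among all genes. Tbx3, a T-box factor and a Wnt target of the liver, read 5.70, 5.06, 5.24 and 5.89 in HS/T+1.0R and 7.43, 7.89, 7.39, 7.22 and 7.24 in C, a fall of 3.9-fold (adjusted p = 2.61e-05) without overlap. Foxa2, a pioneer factor of hepatocytes, read 6.69, 7.0, 6.94 and 6.29 in HS/T+1.0R and 8.40, 8.44, 7.30, 7.44 and 7.61 in C (-1.11 ± 0.24, adjusted p = 0.00346). Nr2f2 and Prox1 fell by 0.82 and 0.83 on the log2 scale, and Gata6, an endoderm and stellate cell factor, rose by 0.94. The Prox1 call ended without HS/T+1.0R array 1 or 2 or control array 3 (adjusted p from 0.0657 to 0.0737). Hnf4a and Cebpa were tested and not called. As deposited, 2 of the 16 were called, and Nr2f2, Prox1 and Gata6 were not (0.0907, 0.113 and 0.11). With the median of its probe sets Prox1 differed by -0.20 and was not called (adjusted p = 0.701).

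Hhex, a homeobox factor of liver and endothelium outside these lists, read 7.55, 6.64, 6.56 and 6.34 in HS/T+1.0R and 10.07, 10.15, 9.17, 9.05 and 9.10 in C, a fall of 6.67-fold (-2.74 ± 0.35, adjusted p = 1.59e-05). Sox18, an endothelial factor, fell 3.55-fold (above the array median on 1 of 4 HS/T+1.0R arrays, floored fold 2.45). Of 14 Wnt targets and zonation genes 0 rose and 6 fell (median -0.43), and 3 were called as deposited and without HS/T+1.0R array 3 or control array 4. The 6 include the negative feedback genes Axin2 (-1.17 ± 0.19), Rnf43 (-1.06) and Znrf3 (-0.82 ± 0.14), beside Tbx3 and the pericentral glutamate transporter Slc1a2 (-0.91). Axin2 read 4.25, 5.12, 5.02 and 4.87 in HS/T+1.0R and 6.03, 6.20, 6.11, 6.13 and 5.45 in C, apart in every array. Axin2 and Rnf43 were above the array median on 3 and 1 of the 4 HS/T+1.0R arrays (floored folds 2.11 and 1.87). The enzymes of the pericentral zone, Glul, Cyp2e1 and Cyp1a2, were tested and not called. The Rnf43 call ended without HS/T+1.0R array 2 or 3 or control array 4 (adjusted p from 0.0532 to 0.0673), and that of Slc1a2 without HS/T+1.0R array 3 or 4 or control array 3 or 4 (0.0685 to 0.145). As deposited the Znrf3 and Slc1a2 calls ended (adjusted p = 0.0761 and 0.0768). They also ended with the median of a gene's probe sets, where Znrf3 differed by -0.003 and Slc1a2 by -0.32 on the log2 scale (0.996 and 0.359).

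Of 22 bile acid genes 3 fell and 0 rose (median -0.13), against 5.31% lower among all genes, and 1 was called as deposited. Cyp7a1, the rate-limiting enzyme of bile acid synthesis, read 7.73, 7.11, 7.90 and 8.26 in HS/T+1.0R and 9.58, 7.89, 10.55, 10.41 and 9.21 in C, a fall of 3.43-fold (adjusted p = 0.008) with ranges that overlapped through control array 2. The nuclear receptors Nr1h4, the bile acid sensor FXR, and Nr5a2, an activator of Cyp7a1, fell by 0.71 and 0.80 on the log2 scale without overlap. Ppara, the fatty acid receptor, fell by 0.67 and its target Fgf21, a fasting hormone, was at least 1.18-fold lower. The Fgf21 call ended without HS/T+1.0R array 1 or 2 (adjusted p 0.0515 and 0.0519). The Nr1h4, Nr5a2 and Ppara calls ended as deposited (0.266, 0.136 and 0.282), and those of Nr1h4 and Ppara also with median centring (0.0854 and 0.055). Of 22 PPARalpha and oxidation genes 2 rose and 2 fell in all, against 4.61% higher and 5.31% lower among all genes.

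Of 18 clock genes 2 rose and 3 fell (median 0.27), against 4.61% higher and 5.31% lower among all genes. The repressors Nfil3 and Bhlhe40 rose 3.04-fold and 3.02-fold. Per3, a period gene, was at least 3.14-fold lower, and the output factors Tef and Dbp fell by 0.99 and 1.90. Dbp read 6.33, 8.12, 6.10 and 6.43 in HS/T+1.0R and 7.32, 6.44, 9.83, 10.14 and 9.51 in C. Control arrays 1 and 2 lay below arrays 3 to 5 in Dbp and in Per3, where C read 5.13, 5.17, 6.96, 7.35 and 6.68. The Tef call ended as deposited (0.0796), with median centring (0.052) and with the median of its probe sets (-0.65, adjusted p = 0.118). The Per3 difference was -1.35 with the median of its probe sets. The Nfil3 call ended with only the 2 groups in the fit (0.0527). The Dbp call ended without HS/T+1.0R array 1, 3 or 4 or control array 3, 4 or 5 (adjusted p from 0.0914 to 0.145). It also ended with median centring (0.0605), with only the 2 groups in the fit (0.133) and with array weights (0.0512). The hour of sampling is not given in the sources used here.

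Ass1, the urea cycle enzyme argininosuccinate synthase, read 7.17, 5.05, 4.96 and 4.94 in HS/T+1.0R and 6.54, 7.0, 8.20, 7.64 and 7.21 in C (-1.79 ± 0.40, adjusted p = 0.00545). HS/T+1.0R array 1 lay among the controls and the other 3 far below. The value rests on the only probe set named for Ass1 alone, and whether that probe set reads the main Ass1 transcript was not tested. It was the 1 call among 22 urea cycle and amino acid genes, 4 of which were called without control array 5. Cyp2b10, a drug-metabolizing P450, was the 1 call among 24 P450 and conjugation genes, 4 of which were called without control array 5. Over all genes 9.91% were called. Cyp2b10 read 8.92, 10.01, 9.17 and 10.01 in HS/T+1.0R and 5.91, 4.72, 3.82, 6.14 and 11.83 in C, where the arrays spanned about 8 log2 units. Its rise of 3.05 became 4.38 without control array 5, and 2.38 and not called without control array 3. The call also ended without any HS/T+1.0R array or control array 1, 2 or 4 (adjusted p from 0.0628 to 0.134 over these 8 fits), and with 18 added before the log (0.0551). Cyp2b10 was above the array median on 4 of 5 C arrays (floored fold 7.41).

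Of 28 interferon-induced genes 8 rose and 0 fell, with a median of 0.03, and 5 were called without HS/T+1.0R array 3 and 3 as deposited. The list was led by Cxcl10, a ligand of Cxcr3 (11.9-fold), and Irf1, a factor that NF-kB also induces (4.31-fold). The calls of Mx2 and Ifit2, antiviral effectors (1.44 and 1.01), ended without HS/T+1.0R array 1, 3 or 4 or control array 1, 3 or 4 for Mx2 (adjusted p from 0.0507 to 0.134) and without HS/T+1.0R array 3 or control array 4 for Ifit2 (0.0564 to 0.0981). Mx2 was above the array median on 2 of 5 C arrays (floored fold 1.67), and its rise was 1.718 without control array 5 (adjusted p = 0.00762). Of 24 coagulation genes 2 rose and 0 fell, Thbd, the anticoagulant thrombomodulin (3.81-fold), and Plaur, the urokinase receptor (3.07-fold). Of 20 vasoactive genes 3 rose and 0 fell, and over all genes 4.61% rose and 5.31% fell.

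None of 33 cytosolic ribosomal protein genes (median -0.01), 23 respiratory chain genes (-0.08) or 13 hepatocyte markers (0.00) was called by limma. At an unadjusted p under 0.05 there were 2, 1 and 1, led by Rpl12, Atp5c1 and Tat (adjusted p = 0.175, 0.164 and 0.159). Without control array 5, 2 ribosomal protein genes and 1 hepatocyte marker were called. Of 23 ribosome biogenesis genes 2 rose, Myc (4.05-fold), a growth factor-induced regulator, and Rrs1, and 6 were called without control array 5. Among all genes 4.61% rose. The Rrs1 call (0.77) ended without HS/T+1.0R array 2, 3 or 4 or control array 2, 3 or 4 (0.0537 to 0.0954). The Rrs1 rise was 0.99 without control array 5 (adjusted p = 0.000431).

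**Figure D3:**
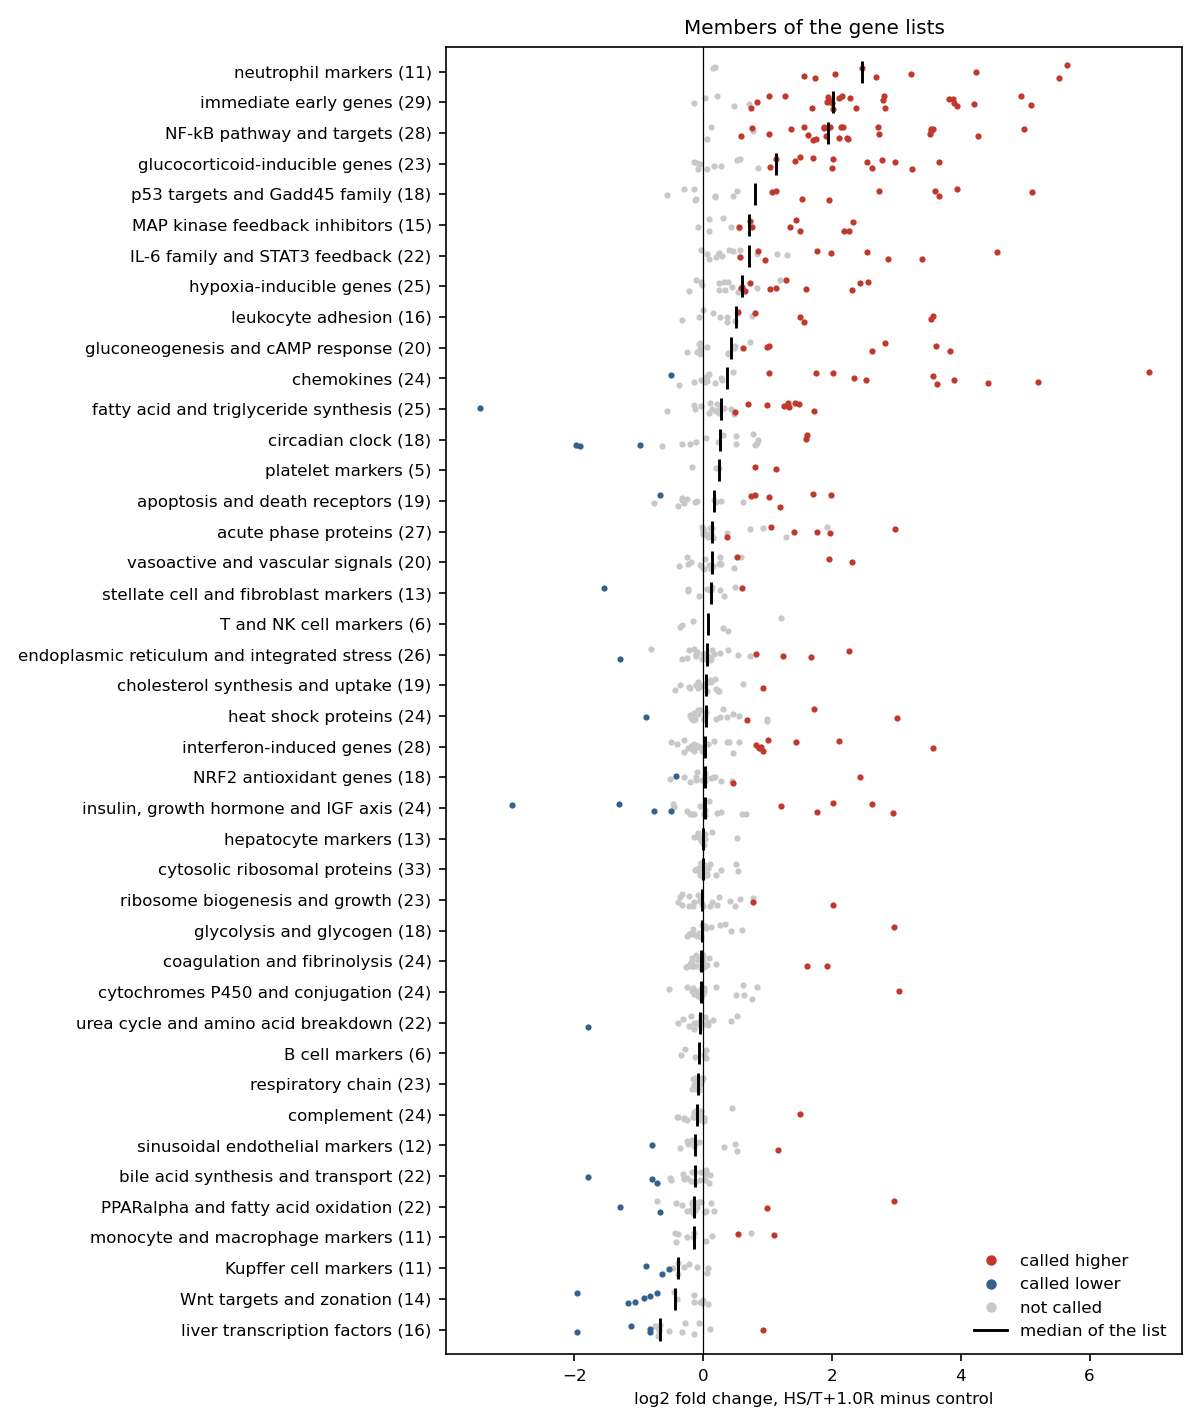
Log2 fold change, HS/T+1.0R minus control (horizontal), of the members of each list with at least 5 tested genes, whose number stands in brackets; red points were called higher, blue lower and grey not called, and the black bar is the median of the list. Neutrophil markers (median 2.46), immediate early genes (2.02) and NF-kB genes (1.94) head the order, and liver transcription factors (-0.67) and Wnt targets (-0.43) close it. Of the leading lists, 4 neutrophil, 4 immediate early and 5 NF-kB genes were tested only through groups other than control.

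Set against the end of shock, the resuscitated livers differed in fewer genes. Between HS/T+1.0R and HS/T, 160 genes were called (1.25%), of which 112 were higher (0.873%) and 48 lower (0.374%). The call counts ran from 82 to 184 when 1 array was left out. Both comparisons share the HS/T+1.0R arrays, so values are given side by side and not counted together. The groups differ by the resuscitation and by the hour it took, which cannot be told apart. HS/T array 4 lay below the other 3 in Cxcl2, Ccl3, Il6 and Ccl2, and for Cxcl2 the HS/T arrays read 9.14, 10.47, 10.60 and 7.91.

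The largest rises over HS/T were those of Hcar2, Ccl2, Rnd1, Sele and Acod1 (3.80, 3.57, 3.50, 2.99 and 2.75 on the log2 scale). Hcar2, the receptor for niacin and beta-hydroxybutyrate, read 7.59, 8.17, 8.54 and 7.93 in HS/T+1.0R, against 4.59, 4.50, 5.09 and 2.85 in HS/T and 3.10, 2.92, 3.04, 3.09 and 3.37 in C. It was 13.9-fold higher than in HS/T (limma adjusted p = 1.57e-05, floored fold 10.1 with 1 of 4 HS/T arrays above the array median) and at least 10.9-fold higher than in C. Acod1, which makes itaconate in macrophages, read 6.50, 7.64, 8.29 and 6.81 in HS/T+1.0R and 5.24, 5.11, 4.97 and 2.92 in HS/T, 6.73-fold higher (adjusted p = 0.00106). Ccl2 read 5.52, 6.10, 5.96 and 3.60 in HS/T and was 11.8-fold higher after the hour of resuscitation (adjusted p = 0.000107). Acod1 and Ccl2 were each above the array median on 3 of 4 HS/T arrays (floored folds 5.03 and 9.96). None of these 3 genes had overlapping ranges between HS/T+1.0R and HS/T.

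Sele lay at or below the array median on every HS/T array (3.34, 4.16, 4.31 and 4.25) and was at least 5.28-fold higher in HS/T+1.0R (adjusted p = 9.97e-06). Icam1 read 8.02, 7.96, 8.21 and 6.65 in HS/T and was 6.41-fold higher in HS/T+1.0R, and Tnfaip3 read 7.86, 8.26, 8.79 and 6.94 in HS/T and was 6.3-fold higher (adjusted p = 3.01e-05 and 0.000235). Rnd1, a small GTPase that loosens the actin skeleton, read 8.63, 9.97, 10.53 and 9.30 in HS/T+1.0R, against 6.82, 6.0, 5.88 and 5.72 in HS/T and 5.59, 6.20, 6.30, 6.12 and 5.13 in C. Its HS/T and C ranges overlapped, and HS/T+1.0R lay 11.3-fold above HS/T (adjusted p = 6.64e-06). Pde4b, a cAMP phosphodiesterase, was 6.54-fold above HS/T (adjusted p = 3.1e-06), and 1.65 above it on the log2 scale with the median of its probe sets. Of the 28 NF-kB genes 13 were higher than in HS/T and 0 lower, against 0.873% higher and 0.374% lower among all genes.

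Irf1 read 9.91, 10.16, 10.53 and 10.14 in HS/T+1.0R, against 8.16, 7.76, 8.02 and 7.24 in HS/T and 8.16, 8.25, 8.19, 8.12 and 7.67 in C. It was 5.24-fold above HS/T and 4.31-fold above C (adjusted p = 1.68e-07 and 2.51e-08), and the resuscitated group stood alone above ranges that overlapped. Hmox1, Il1rn and Fst were 3.84-fold, 3.71-fold and 5.72-fold above HS/T. The Hmox1 call ended without HS/T+1.0R array 2 or HS/T array 4 (adjusted p 0.0512 and 0.0513). Neutrophil markers were higher than in HS/T in 3 of 11 genes (Clec4e, Mmp8 and Ngp) and lower in 0. Among all genes 0.873% were higher and 0.374% lower. Clec4e lost its call without HS/T+1.0R array 2 or 3 or HS/T array 4 (0.0521 to 0.0826) and with 1 added before the log (0.0816). For Clec4e 3 of 4 HS/T arrays were above the array median (floored fold 3.55). S100a8 and S100a9 differed from HS/T by 1.25 ± 0.59 and 1.46 ± 0.53 and were not called (adjusted p = 0.46 and 0.253).

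Of the 29 immediate early genes 5 were higher than in HS/T (Ier3, Rhob, Egr2, Ier5 and Trib1) and 3 lower (Klf4, Klf10 and Klf2), with a median of 0.37. Among all genes 0.873% were higher than in HS/T and 0.374% lower. Ddit4, an inhibitor of mTORC1 induced by low oxygen and glucocorticoids, read 8.13, 7.11, 7.75 and 8.48 in HS/T+1.0R, against 10.06, 11, 10.57 and 10.35 in HS/T and 6.59, 6.09, 7.14, 6.56 and 7.75 in C. It was 6.17-fold below HS/T (adjusted p = 0.000147) and 2.06-fold above C, a call that ended without HS/T+1.0R array 1, 3 or 4 or control array 1, 2, 3 or 4 (adjusted p from 0.0526 to 0.164). The Ddit4 call against C also ended as deposited (0.147), with median centring (0.0749) and with only the 2 groups in the fit (0.0742). The Ddit4 rise over C was 1.27 on the log2 scale without control array 5 (adjusted p = 0.00895). Klf2, a flow-responsive endothelial factor, read 5.23, 5.54, 5.51 and 5.93 in HS/T+1.0R and 6.84, 7.79, 7.20 and 8.02 in HS/T, 3.76-fold lower (adjusted p = 0.0008). It read 5.66, 5.10, 5.78, 6.04 and 5.85 in C, a range that overlapped with HS/T+1.0R. The related factors Klf4 and Klf10 were 3.28-fold and 3.25-fold below HS/T (adjusted p = 0.00149 and 0.00697), and neither was called against C.

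Txnip, an inhibitor of glucose uptake, read 8.40, 7.47, 7.85 and 8.16 in HS/T+1.0R and 9.48, 10.60, 9.41 and 10.47 in HS/T, 4.06-fold lower (adjusted p = 0.00325). Angptl8, a lipoprotein lipase regulator that responds to feeding, read 6.34, 6.54, 5.58 and 6.51 in HS/T+1.0R and 8.87, 9.74, 7.97 and 8.79 in HS/T, 6.05-fold lower (adjusted p = 0.00178). Ass1 was 4.85-fold lower and Nr0b2, the bile acid-induced repressor SHP, 3.03-fold lower. The Nr0b2 call ended without HS/T+1.0R array 2 or 3 (adjusted p 0.0512 and 0.0521). Dusp1 was 2.31-fold below HS/T and 2.84-fold above C, and the call against HS/T ended without HS/T+1.0R array 2 or 3 or HS/T array 2 or 4 (0.0547 to 0.0625).

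Other leading genes did not differ detectably from HS/T. Il6 differed by -0.05 ± 0.47, Atf3 by -0.21 ± 0.26, Egr1 by -0.40 ± 0.45 and Igfbp1 by 0.09 ± 0.35 on the log2 scale (limma adjusted p = 0.989, 0.868, 0.856 and 0.974). G0s2 and Hhex were lower than in HS/T as well, by 1.47 and 1.54 on the log2 scale. The G0s2 call ended without HS/T+1.0R array 2 or 3 or HS/T array 1, 2 or 4 (adjusted p from 0.0503 to 0.103), and that of Hhex without HS/T+1.0R array 2, 3 or 4 or HS/T array 1, 2 or 4 (0.0666 to 0.183). Inhbe, at -0.71 ± 0.23, was not called (adjusted p = 0.176).

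**Figure D4:**
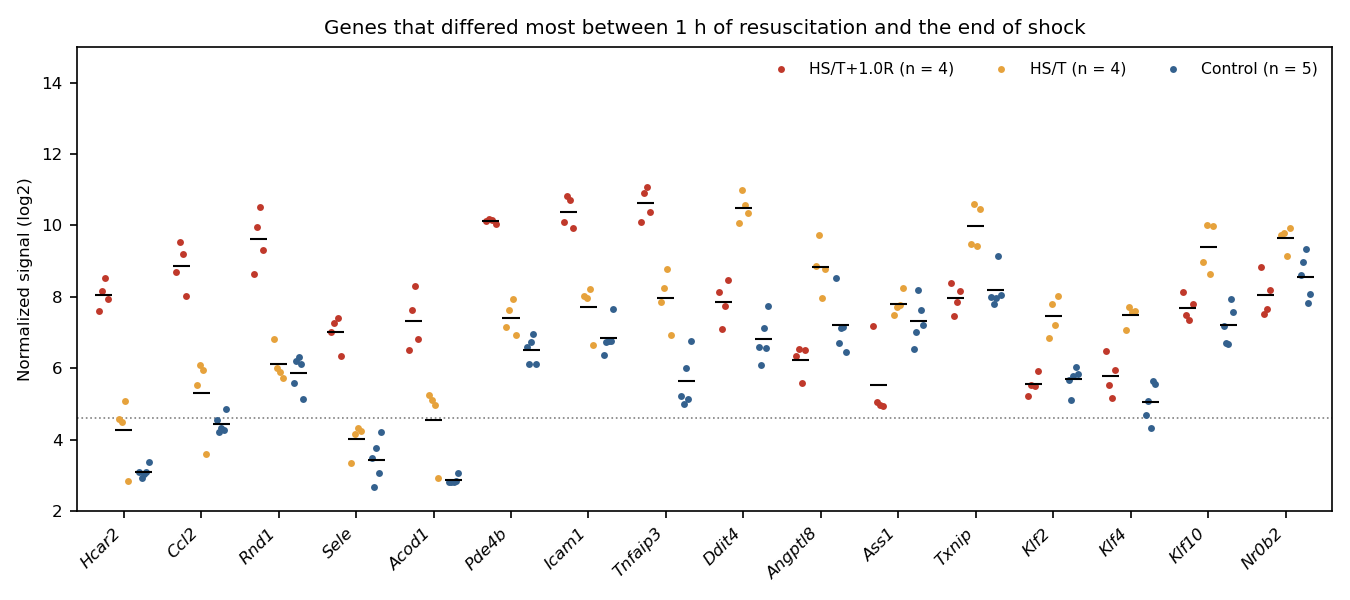
Normalized signal (log2, vertical) of the 8 named genes highest and the 8 lowest in HS/T+1.0R against HS/T, with 1 point per array for HS/T+1.0R (red, n = 4), HS/T (orange, n = 4) and control (blue, n = 5); black bars are group means and the dotted line is the array median of 4.604. The first 8 genes are highest in HS/T+1.0R, and the HS/T points of Ddit4, Klf2, Klf4, Klf10 and Txnip lie above all points of the other groups.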

How the data were processed

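RNA of whole mouse livers was hybridised to 1-colour Affymetrix arrays, 1 array per sample. The authors deposited one intensity per probe set. Per the submitters' processing notes the tool was MAS5, whose version is not given in the sources used here. Each array's values were deposited on their own scale. To them 6 was added, near the 25th percentile of all values (5.586), log2 was taken and the 20 arrays were quantile normalized.

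Of the probe sets, 34945 named 1 gene in the platform annotation, 932 several and 9160 none, and 64 were controls; only those naming 1 gene were used. Symbols were checked through Entrez identifiers. A probe set was kept if above its own array's median on at least 3 arrays (27274 kept), and the one with the highest mean stood for its gene, which gave 12832 of 18193 genes. A model with 1 mean per group over all 20 arrays was fitted with limma 3.58.1 (R 4.3.3, eBayes with an intensity trend), and genes were called at a Benjamini-Hochberg adjusted p of at most 0.05. Where the lower group lay at or below the array median on every array, the fold is given as a bound, computed against that median. Where only some of its arrays did, those arrays were set to the median for a second, floored fold. A summed signal adds the members' normalized values on the linear scale.

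Named genes were the 15 with the largest rises and the 15 with the largest falls among called genes, the 8 largest each way against HS/T, and up to 5 called members per list, or the 2 with the smallest p where none was called. Members and lists were chosen with earlier results of these data known. Of 912 listed genes 774 were tested, in 46 lists. On simulated data for HS/T+1.0R against C over 12832 genes, 76 of 100 2-fold and 99 of 100 4-fold changes were recovered, and 10 unchanged genes were called. The simulated noise was normal, independent between arrays and genes, and of the same spread in every group. It held no aberrant array, shared shift or scaling step, so these counts do not give the error of the real calls. The number of arrays limits the precision. Alternatives changed the scaling, the value added before the log (1 or 18 in place of 6), filter, probe set rule, spread model and arrays used.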

Additional observations from a re-analysis of the deposited data

Results flagged for a closer look

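In 39 of the 314 groups of arrays examined for the named genes (one group per gene and condition), 1 array stood apart from its group by Dixon's 95% criterion; chance flags about 1 in 20 groups. Of the 39, 23 were in the control group and 16 in HS/T+1.0R. Values below are normalized log2 signals.

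HS/T+1.0R array 1 accounted for 10. It was lowest of its group in Ier3 (9.44), Lcn2 (9.35), Mt1 (12.68), Il1rn (7.02), Steap4 (10.27), Hspa1b (9.20), Serpina3n (10.70) and Cd163 (6.84), and highest in Ass1 (7.17) and Inhbe (4.74). HS/T+1.0R array 2 was highest in Mylpf (5.14) and Dbp (8.12), and array 3 was lowest in Plin4 (5.89). Array 4 was lowest in Ndrg1 (7.42), Ckm (3.28) and Slc1a2 (7.25).

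Control array 5 accounted for 14. It was highest of its group in the neutrophil genes S100a8 (7.53) and S100a9 (7.09), in Acod1 (3.07), Gadd45a (7.19), Cyp2b10 (11.83), Lcn2 (11.78), Hmox1 (7.91), Thbd (6.88), Rrs1 (9.69) and Rpl12 (6.64). It was lowest in Irf1 (7.67), Rnf43 (4.83), Axin2 (5.45) and Zfp467 (4.97).

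The other controls accounted for 9. Array 1 was lowest in Ppp1r15a (6.12), Dusp1 (7.89) and Bcl2l11 (6.21), and array 2 was lowest in Ppp1r3g (3.42) and highest in Cd79a (4.81). Array 3 was highest in Nfe2l2 (9.30) and Cox5a (12.16), and array 4 in Trib3 (7.30) and Txnip (9.13).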

How the results depend on the processing

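The 1272 calls of HS/T+1.0R against C became 482 with the values as deposited, 440 within the spiked and 290 within the other arrays, 1738 with array weights, 1897 with control array 5 and MT array 3 both left out, and 881 to 1466 when 1 array was left out. MT array 3 had the weakest best correlation with another array (r = 0.95), and it entered the estimate of the spread in the main fit. Calls of at least 2-fold numbered 241 within the other arrays and 389 to 499 with 1 array left out. The 160 calls against HS/T became 76 with the values as deposited, 280 with only the 2 groups in the fit, 412 with array weights, 55 within the spiked and 2 within the other arrays, 267 with control array 5 and MT array 3 both left out, and 82 to 184 with 1 array left out. They numbered 82 without HS/T+1.0R array 3 or HS/T array 4 and 84 without HS/T+1.0R array 2, and 96 without HS/T array 2.

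Of the calls on the values as deposited 469 were shared with those reported in the same direction, as were 881 of the 895 with median centring and 1189 of the 1470 with trimmed mean scaling, and none was opposite. Called list members moved by more than 1.5 times in 31 of 46 lists within the other arrays, 19 within the spiked arrays and 16 with the values as deposited. Of the named genes' results 105 were no longer past the threshold within the other arrays. The cause of these shifts was not tested; fewer arrays enter the fits within the spike-in sets.

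Same-numbered HS/T+1.0R and C arrays did not deviate together (correlations 0.087, -0.076, 0.004 and -0.055), and unlike-numbered ones gave -0.173 to 0.121. So few correlations cannot exclude a pairing, and the main fit did not pair the samples. With the replicate block 1418 genes were called, 501 at 2-fold and 171 against HS/T.

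With the median of a gene's probe sets, 994 of the 1229 calls against C were shared in the same direction. In that fit 1 gene outside the named ones was called in the opposite direction. Named genes that changed sign against C were not called in the fit where the sign changed. They were Atp5c1 (0.021) and Cox5a (0.036) with median centring, Atp5c1 (0.006) with the median of a gene's probe sets, Klf4 (-0.016) and Mylpf (0.025) within the spiked arrays and Txnip (0.274) within the others. With 1 array left out they were Mylpf (-0.141 to 0.099), Cd79a (-0.54 to 0.005), Alas2 (-0.011 to 0.244) and Txnip (-0.365 to 0.014).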

Other observations

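Some genes of the zinc finger and ubiquitin ligase stems were lower in HS/T+1.0R than in C. Among 253 tested genes whose symbols begin with Zfp, 37 fell (14.62%) and 6 rose, against 5.31% lower among all genes, with a median log2 fold change of -0.28. Of 41 Trim genes 8 fell (19.51%) and 0 rose (median -0.33), and of 71 Rnf genes 10 fell and 3 rose. Of 36 Zbtb genes 7 fell and 3 rose. Shares near those of Zfp and Rnf were not particular to them among the 53 stems with at least 20 tested genes. The share that fell was 13.79% for Cep, 13.64% for Cdk and for Mettl, 13.46% for Wdr and 13.33% for Rbm. The counts depended on the scaling: with the values as deposited 16 Zfp, 2 Trim, 3 Rnf and 1 Zbtb genes fell, and with trimmed mean scaling 46, 9, 13 and 11. Of 45 genes whose symbols begin with Il, 9 rose (20%) and 0 fell, of 20 Dusp genes 8 rose and 1 fell, and of 61 Cd genes 13 rose (21.31%) and 2 fell, against 4.61% higher among all genes. With the values as deposited 6 Il, 5 Dusp and 6 Cd genes rose. These stems were picked after their values were seen, so the counts are a description only.

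In 50 of the 12832 genes tested every HS/T+1.0R array lay above the array median while no C array did, among them Il6, Ccl3, Hcar2, Acod1, Sele and Dusp5. A gene could enter the test through the HS/T+1.0R arrays alone, so the count is a description only. The reverse count is not given here.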
